A study of Arabidopsis thaliana and Hordeum vulgare and Setaria italica with 13 samples.

Results

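Barley (Hordeum vulgare) seedlings were profiled for transfer RNAs (tRNAs) by 2 sequencing assays, and every tRNA sequence listed for barley by YAMAT-seq is described here and set against the tRNA-seq values of the same species. All 86 listed barley sequences were taken, of 532 listed over the 5 YAMAT-seq libraries of the study. The anticodon of each was read as the middle 3 bases of the 7-base anticodon loop, and reads were summed per anticodon as a percent of the library. Both libraries, YAMAT-seq and tRNA-seq, came from whole seedlings of age 10 days, kept in soil at 23 ºC under 16 h of light and 8 h of dark. The labels give no cultivar and no treatment, and do not say whether both assays used the same RNA. RNA was treated with a kit for tRNA fragments before either assay. The YAMAT-seq library held 13059898 reads, and its cDNA was amplified with 12 PCR cycles. The tRNA-seq values were percentages over 52 listed anticodons, of which 46 were above 0 in barley, and the depth behind them is unknown. All 46 were whole multiples (within 0.01 of a step) of the smallest, 0.00710%, so small shares are coarse. Each assay had 1 barley library, so no difference could be set against a replicate spread and none was tested. The 95% intervals were computed by the exact Clopper-Pearson method. They cover counting error alone, as reads copied by PCR were not tagged with molecular identifiers and do not each stand for a molecule. The sources used here do not say whether both mates of a read pair were counted. If they were, small counts stand for fewer fragments and their intervals are too narrow.

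A tRNA carries 1 amino acid to the ribosome and reads the codon that pairs with its anticodon. Plant cells make tRNAs from nuclear, plastid and mitochondrial genes, and every mature tRNA ends in the bases CCA, to which the amino acid is joined. In YAMAT-seq a Y-shaped adapter pairs with that end and is ligated to both ends of the molecule, which selects full-length mature tRNAs. In tRNA-seq the treated RNA enters a small RNA library. Sequences with the same anticodon form a family here, written as amino acid and anticodon in DNA letters (GlyGCC), and different sequences within a family are called isodecoders.

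The 10 largest YAMAT-seq families were each led by 1 sequence, and these are shown because they carry nearly all reads. A sequence of GluTTC that held at least 5% of its family and the 2nd sequence of AspGTC are added. Each is given 5′ to 3′ with its CCA end, in the order of reads, with the anticodon in capitals.
tR55 GlyGCC: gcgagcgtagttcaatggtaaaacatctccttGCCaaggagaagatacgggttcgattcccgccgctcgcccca
tR175 GlnTTG: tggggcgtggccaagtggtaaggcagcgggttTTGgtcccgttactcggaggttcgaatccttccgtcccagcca
tR170 AspGTC: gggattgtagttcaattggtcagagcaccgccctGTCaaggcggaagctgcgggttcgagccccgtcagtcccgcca
tR10 MetCAT: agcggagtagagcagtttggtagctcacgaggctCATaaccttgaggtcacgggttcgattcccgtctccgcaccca
tR250 AspGTC: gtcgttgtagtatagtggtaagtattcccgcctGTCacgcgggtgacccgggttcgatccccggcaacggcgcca
tR209 CysGCA: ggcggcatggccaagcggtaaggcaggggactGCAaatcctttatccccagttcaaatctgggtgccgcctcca
tR224 ArgTCT: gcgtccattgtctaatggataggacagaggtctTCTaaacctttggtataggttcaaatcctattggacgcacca
tR193 TrpCCA: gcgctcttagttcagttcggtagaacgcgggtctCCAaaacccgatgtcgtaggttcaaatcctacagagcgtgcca
tR257 GluCTC: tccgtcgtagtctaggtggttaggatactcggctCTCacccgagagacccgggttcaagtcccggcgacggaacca
tR235 GluTTC: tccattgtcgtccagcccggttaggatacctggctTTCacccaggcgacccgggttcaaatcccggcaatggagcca
tR163 AsnGTT: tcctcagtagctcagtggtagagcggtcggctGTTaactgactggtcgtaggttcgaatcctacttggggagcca
tR230 GluTTC: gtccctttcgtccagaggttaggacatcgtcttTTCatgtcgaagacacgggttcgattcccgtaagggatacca

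Mature barley tRNA reads came overwhelmingly from a single glycine tRNA. The sequence tR55 had 9933550 reads, which is 76.06% of the library (95% interval 76.04 to 76.08). The glutamine tRNA tR175 followed with 1838651 reads (14.1%), the aspartate tRNA tR170 with 893018 reads (6.84%) and the methionine tRNA tR10 with 237527 reads (1.82%). Together 2 sequences reached 90% of the reads and 5 reached 99%. Of the 86 sequences, 16 had at least 1000 reads and held 99.96% of the library, 26 had at least 10 but fewer than that (5072 in all), and 44 had under 10 reads (156 in all). The median over the 86 sequences was 8 reads, so most entries of the list rested on very few reads.

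**Figure D1:**
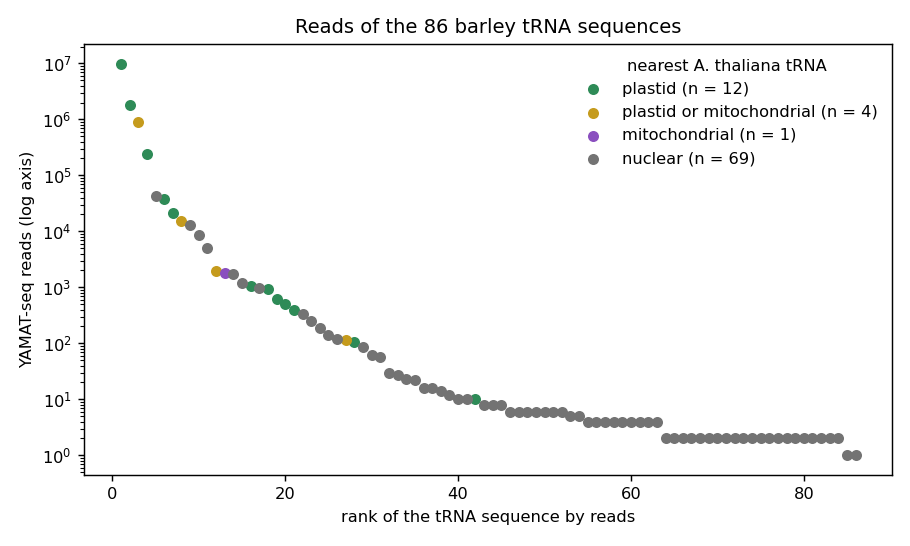
Reads of the 86 barley tRNA sequences (vertical log axis) by their rank (horizontal axis), 1 point per sequence, coloured by the compartment of the nearest A. thaliana tRNA. The first 4 points, none of them nuclear-like, hold 98.8% of the reads, and 44 points lie under 10 reads.

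The YAMAT-seq and tRNA-seq libraries of barley described different tRNA pools. A family was called higher or lower where the log2 ratio of its YAMAT-seq percent to its tRNA-seq percent, each with 0.01 added, was at least 2 in size, a 4-fold difference. Of the 47 families found in either library, 1 (2.13%) was called higher in YAMAT-seq, 35 (74.5%) were called lower and 11 (23.4%) lay within 4-fold. The YAMAT-seq share was above the tRNA-seq share at any fold in 4 families (8.51%). In YAMAT-seq 2 families made up 90% of the library, against 18 families in tRNA-seq. Since the percentages of a library share 1 total, a family that takes most of it lowers the shares of all others.

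**Figure D2:**
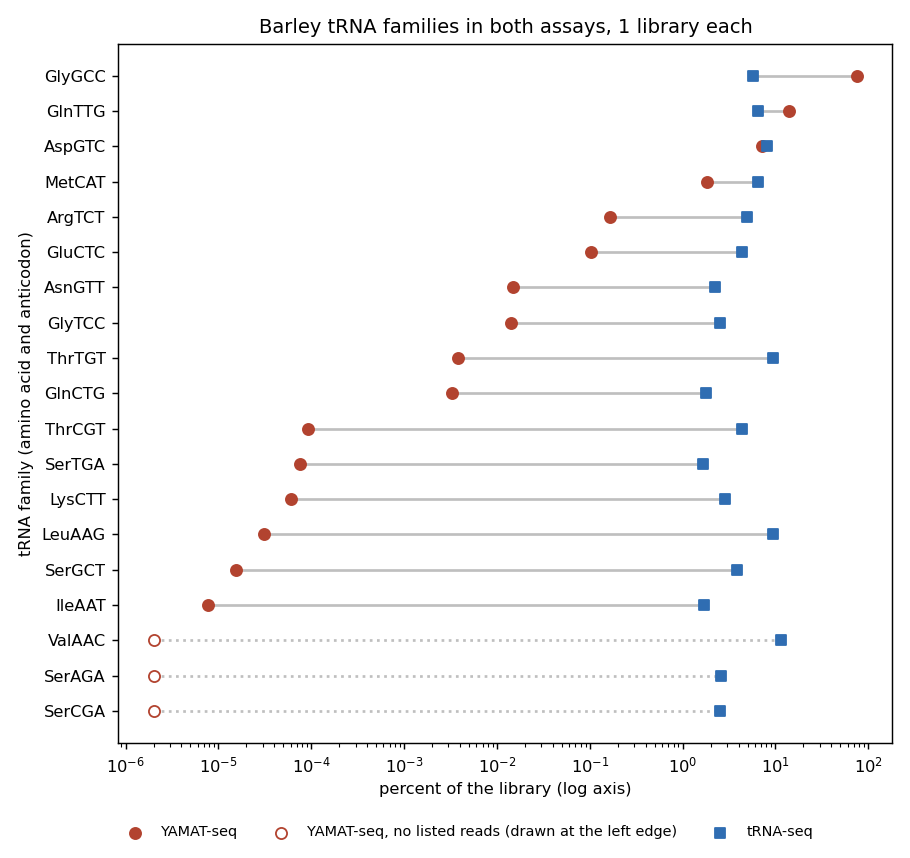
Percent of the barley library (horizontal log axis) in YAMAT-seq (circles) and tRNA-seq (squares) for the 19 families with at least 1% of either library, in the order of YAMAT-seq. tRNA-seq values lie between 1.67% and 11.4%, while YAMAT-seq values run down from 76.1%, and the open circles at the left edge are 3 families with no listed reads. All 19 families have at least 1% of tRNA-seq, so that cut sets the narrow tRNA-seq range. Over all families above 0, tRNA-seq runs down to 0.00710%.

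The family called higher was GlyGCC, which decodes both glycine codons that end in a pyrimidine. It had 9934526 YAMAT-seq reads, 76.07% of the library (95% interval 76.05 to 76.09), against 5.80% in tRNA-seq, a 13.1-fold difference and a log2 ratio of 3.71. It ranked 1st in YAMAT-seq and 7th in tRNA-seq. GlnTTG, which reads glutamine codons, made up 14.1% of YAMAT-seq (95% interval 14.07 to 14.11) and 6.54% of tRNA-seq, with a log2 ratio of 1.11. CysGCA, which brings cysteine, was 0.294% in YAMAT-seq and 0.255% in tRNA-seq. These 3 families, with IleGAT at 2 YAMAT-seq reads and a tRNA-seq value of 0, were the 4 with a higher share in YAMAT-seq.

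AspGTC, MetCAT and GluTTC lay within 4-fold and below their tRNA-seq shares, a direction that turned when GlyGCC was left out. AspGTC, the family that serves both aspartate codons, was 7.21% of YAMAT-seq (95% interval 7.20 to 7.22) and 8.04% of tRNA-seq. MetCAT is the anticodon of tRNAs for the start codon and of those for internal methionine codons. It was 1.82% of YAMAT-seq and 6.52% of tRNA-seq, with a log2 ratio of -1.84. In YAMAT-seq 237527 of its 237531 reads were of tR10, which lay nearest the plastid initiator tRNA. GluTTC was 0.0800% of YAMAT-seq and 0.149% of tRNA-seq. The 4 families with at least 1% of both libraries were GlyGCC, GlnTTG, AspGTC and MetCAT, and they held 99.2% of YAMAT-seq and 26.9% of tRNA-seq.

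Of the 19 families with at least 1% of either library, 15 were called lower in YAMAT-seq, beside 74.5% of all families. All 19 had at least 1% of tRNA-seq, and the 4 with at least 1% of YAMAT-seq were not called lower. The 15 were thus picked by a high tRNA-seq share, which favours a lower call, so their count is no evidence of one. Their gaps spanned several orders of magnitude. ArgTCT, an arginine family, was 0.164% of YAMAT-seq (21379 reads) and 4.94% of tRNA-seq, a 30.2-fold difference. GluCTC, a glutamate family, was 0.104% (13521 reads) and 4.32%, a 41.7-fold difference. Both still ranked among the 10 largest families of YAMAT-seq. AsnGTT, which serves both asparagine codons, stood at 0.0149% (1943 reads) in YAMAT-seq and 2.24% in tRNA-seq, and the glycine family GlyTCC stood at 0.0141% (1837 reads) and 2.53%. ThrTGT, a threonine family, had 498 reads (0.00381%) in YAMAT-seq, while its tRNA-seq share of 9.50% was the 2nd largest of that library. GlnCTG, the other glutamine family, had 433 reads (0.00332%) and 1.79%. GlnTTG and GlnCTG thus lay on opposite sides of their tRNA-seq shares.

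The next 9 families were close to or without listed reads in YAMAT-seq although each held over 1% of tRNA-seq. ThrCGT had 12 reads in YAMAT-seq and 4.39% in tRNA-seq, SerTGA had 10 reads and 1.67%, and LysCTT had 8 reads and 2.83%. LeuAAG, the 3rd largest family of tRNA-seq, had 4 reads in YAMAT-seq, a share with a 95% interval of 8.35e-06% to 7.84e-05%, and 9.38% in tRNA-seq. SerGCT had 2 reads and 3.88%, and IleAAT had 1 read and 1.70%. ValAAC, the largest family of tRNA-seq at 11.4%, had no listed reads in YAMAT-seq, and neither had SerAGA (2.60%) or SerCGA (2.50%). The YAMAT-seq file lists only sequences with at least 1 read, and the sources used here do not say whether the reference tRNAs of barley held these families, so no fold is given for them.

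In all, 13 of the 47 families (27.7%) were above 0 in tRNA-seq and had no listed YAMAT-seq reads, and they summed to 19.5% of tRNA-seq. Besides the 3 named they were ThrAGT (0.816%), LeuTAG (0.688%), LeuCAG (0.539%), ValCAC (0.383%), LeuCAA (0.305%), AlaCGC (0.206%) and 4 families under 0.1%. Of the 35 lower calls, 25 (53.2% of the 47 families) had listed reads and 10 (21.3%) had none. A further 11 families, LysCTT, LeuAAG, SerGCT and IleAAT among them, were listed with under 10 reads each, 37 reads in all, and summed to 19.3% of tRNA-seq.

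By amino acid, glycine led YAMAT-seq and alanine was almost without reads. Glycine summed to 76.1% of YAMAT-seq and 8.72% of tRNA-seq, from 1 family called higher and 2 called lower, and alanine to 2 reads and 0.383%, with all 3 families called lower. These counts and those that follow stand beside 35 of 47 families (74.5%) called lower in all, and no group was tested against that share. The families of leucine, serine and tyrosine, the amino acids whose tRNAs have a long variable arm in some or all compartments, had 34 reads in YAMAT-seq and 21.6% in tRNA-seq. The 18 tyrosine reads were all of nuclear-like sequences with an insert in the anticodon loop. The other 16 reads were of serine and leucine. Of these 10 families 9 were called lower and 6 had no listed reads, and the median log2 ratio was -6.75, beside -4.98 over all 47 families. Each of the 10 had 18 reads or fewer, a YAMAT-seq share far under the 0.01 added. Their ratios thus rest mostly on that constant and on their tRNA-seq shares. The branched amino acids valine, isoleucine and leucine had 9 reads in YAMAT-seq and 25.3% in tRNA-seq, with 8 of 11 families called lower. Threonine and proline together were 0.0124% and 15.6%, with 6 of 7 families called lower.

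Glutamine and aspartate held the largest YAMAT-seq shares after glycine. Aspartate and glutamate summed to 7.39% of YAMAT-seq and 12.5% of tRNA-seq, with 1 of 3 families called lower. Asparagine and glutamine summed to 14.1% and 10.6%, with 2 of 3 families called lower. The basic amino acids arginine, lysine and histidine summed to 0.165% and 8.71%, with 6 of 8 families called lower, near the share of all families, and their median log2 ratio of -4.27 lay near that of all families. Cysteine, tryptophan, phenylalanine and tyrosine summed to 0.419% and 1.08%, with 3 of 4 families called lower. TrpCCA within that group was 0.117% of YAMAT-seq and 0.653% of tRNA-seq, a log2 ratio of -2.38.

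Grouped by the first base of the anticodon, the position that pairs with the last base of the codon, the YAMAT-seq shares rested on 1 family each. Families with G there held 83.6% of YAMAT-seq, of which GlyGCC gave 76.1%, and 21.1% of tRNA-seq, with 6 of 10 called lower. Families with T held 14.4%, of which GlnTTG gave 14.1%, and 27.6%, with 8 of 14 called lower. Families with C held 2.04%, of which MetCAT gave 1.82%, and 25.0%, with 13 of 15 called lower, beside 74.5% of all families. Families with A there, a base that in plant tRNAs is commonly deaminated to inosine, had 122 reads in YAMAT-seq and 26.3% in tRNA-seq. All 8 of these families were called lower, and 107 of the 122 reads came from the plastid-like ArgACG sequence tR69.

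Several of these directions depended on GlyGCC. With GlyGCC left out of both libraries and the rest scaled to 100%, GlnTTG was 58.9% of YAMAT-seq and 6.94% of tRNA-seq and was then called higher, with a log2 ratio of 3.08. CysGCA at 1.23% and 0.271% was the other family called higher. AspGTC turned to a higher share in YAMAT-seq at 30.1% and 8.53% (log2 ratio 1.82), MetCAT turned to 7.60% and 6.92% (0.13) and GluTTC turned to 0.334% and 0.158% (1.03). With GlnTTG and AspGTC also left out, a choice made after the data were seen, TrpCCA stood at 4.45% and 0.820% (2.43) and PheGAA at 0.275% and 0.169% (0.67), both higher in YAMAT-seq, and ArgTCT at 6.22% and 6.20%. The median log2 ratio of all families was -4.98 as deposited, -4.56 without GlyGCC and -3.55 without the 3 largest families.

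Most families kept a lower share in YAMAT-seq on these scales. Without GlyGCC the log2 ratios of ArgTCT (-2.92), GluCTC (-3.38), AsnGTT (-5.05), GlyTCC (-5.29), ThrTGT (-8.60) and GlnCTG (-6.32) stayed past 4-fold, and 33 of 46 families were called lower in all. Without the 3 largest families AsnGTT (-2.29), GlyTCC (-2.55), ThrTGT (-6.27) and GlnCTG (-4.05) were still past it, while GluCTC (-0.46) was not, and 29 of 44 families were called lower.

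The order of the families was only loosely shared between the assays. Across the 33 families above 0 in both barley libraries, Spearman's rho between YAMAT-seq and tRNA-seq percentages was 0.374, given as a description, since the families of a library share its total. Of the 10 largest families of each assay, 6 were common to both. The same measure was 0.448 in wheat (39 families), 0.174 in foxtail millet (32), 0.566 in maize (24) and 0.663 in A. thaliana (45). For A. thaliana the tRNA-seq label is seedling leaf and the YAMAT-seq label seedling.

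Within families, 1 isodecoder usually held nearly all reads. Of the 34 families with listed reads, 14 had 1 sequence and 20 had more, with 6 in AspGTC and 5 in each of 6 families. In the 20 families with more, the median share of the leading sequence was 95.03%, and in 13 of them it was at least 90%. The leader was under 50% in ProCGG, TyrGTA and ArgCCT, which had 63, 18 and 17 reads. GlnCTG was the most evenly spread of the better covered families. Its leader tR133 had 253 of 433 reads (58.4%, 95% interval 53.6 to 63.1), followed by tR236 with 87, tR113 with 62, tR182 with 29 and tR145 with 2, all within 5 edits of tR133.

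**Figure D3:**
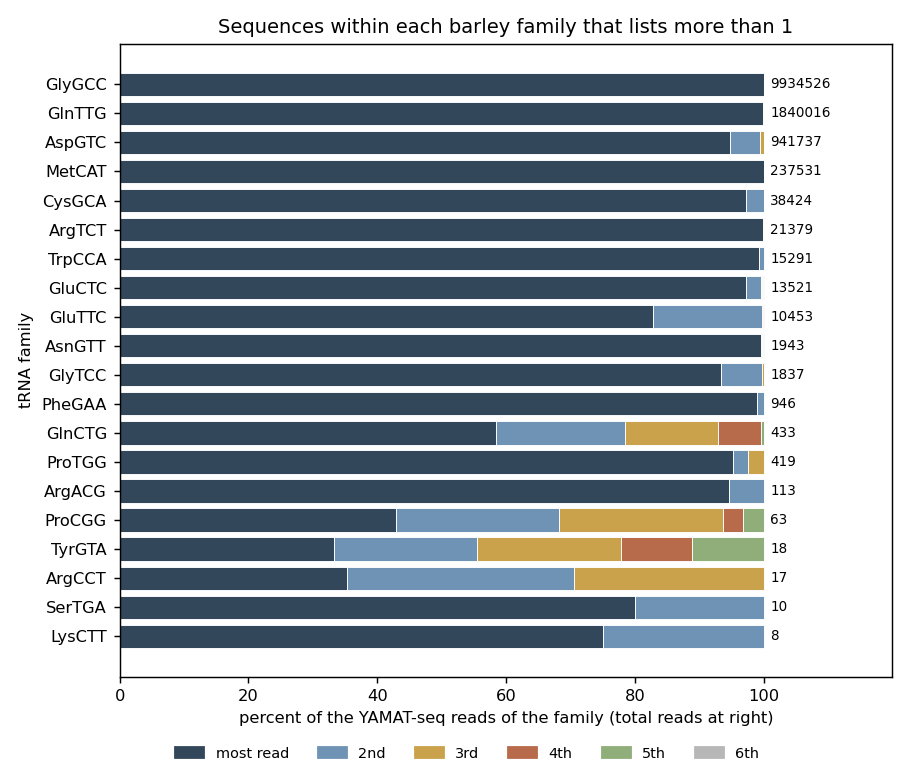
Percent of the YAMAT-seq reads of a family (horizontal axis) held by each of its sequences, for the 20 barley families with more than 1, with total reads at the right. The leading sequence fills most of each bar down to AsnGTT and GlyTCC, and the bars split most in GlnCTG (433 reads) and in families with 63 reads or fewer.

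Some minor isodecoders were close variants of the leader and others were distant sequences with the same anticodon. Of the 52 sequences that did not lead their family, 34 lay within 3 edits of a sequence of the family with as many or more reads, and 26 lay over 10 edits from the leader and held 52884 reads. Those 2 sets overlap. In GlyGCC the 2nd sequence, tR152 with 972 reads, lay 24 edits from tR55 and is shown because it is the nuclear-like glycine tRNA of the same anticodon.
tR152 GlyGCC: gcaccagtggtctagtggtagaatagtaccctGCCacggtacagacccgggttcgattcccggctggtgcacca
In GlnTTG the 2nd sequence, tR239 with 1217 reads, lay 33 edits from tR175. In GluTTC tR235 had 8661 reads (82.9%) and tR230 had 1770 (16.9%), 25 edits apart.

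AspGTC held the largest minor isodecoder. Its leader tR170 had 893018 reads (94.8%), and tR250, 26 edits away, had 43542 reads (4.62%). The next sequence, tR205 with 4977 reads (0.528%), differed from tR250 by the substitution A20G, and tR46 with 190 reads differed by T58C, where the base of tR250 is given first and positions count from 1 at the 5′ end. Close variants were also listed in other families. Among nuclear-like sequences, in GluCTC the sequence tR245 with 332 reads differed from tR257 (13140 reads) by C6T, and in GlyTCC tR221 with 118 reads differed from tR207 (1715 reads) by T20C. Among organelle-like sequences, in CysGCA tR200 with 1069 reads differed from tR209 (37353 reads) by C66T. In TrpCCA tR214 with 116 reads differed from tR193 (15175 reads) by C28T, G30T and G44A.

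The reads fell almost wholly on sequences that resemble organelle tRNAs. No barley genome was used here, so each sequence was matched by edit distance to the tRNA genes of A. thaliana (TAIR10.1), and the compartments named mean likeness only. Plastid-like sequences numbered 12 and held 92.4% of the reads, 4 sequences could be plastid or mitochondrial (6.97%), and 1 was mitochondrial-like (1770 reads). The 69 nuclear-like sequences, in 30 families, held 0.580% of the reads (95% interval 0.576 to 0.585). In whole seedlings, more organelles per cell, more tRNA per organelle and unequal weighing of tRNAs by the assay cannot be told apart. None of these was tested. The tRNA-seq values name no compartment, so this split has no counterpart there.

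The likeness was close for most leading sequences and looser for the largest. The aspartate tRNA tR170 was identical, without its CCA, to the plastid gene ArthCt095 at plastid positions 29801 to 29874 on the minus strand, and 1 edit from a mitochondrial gene. ArgTCT tR224 lay 1 edit from its plastid gene, GlnTTG tR175 and CysGCA tR209 each lay 5 edits away, and MetCAT tR10 lay 8 edits from the plastid initiator tRNA. The glycine tRNA tR55 lay 14 edits from the plastid GlyGCC gene and 22 and 23 from the nearest mitochondrial and nuclear genes. Under a limit of 12 edits it was unassigned, and the plastid-like share was then 16.4%. The plastid GluTTC tRNA, in barley as in other plants, also provides the glutamate from which chlorophyll is made. The barley GluTTC sequences tR235 and tR230 lay 32 and 21 edits from their nearest plastid genes, of lysine and of glutamate. Of the GluTTC sequences listed for barley 3 were nuclear-like, 1 was mitochondrial-like and none was plastid-like.

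Nuclear-like and organelle-like sequences stood side by side in 10 families, and the organelle-like one was far ahead in most. In GlyGCC the nuclear-like sequences had 976 of 9934526 reads, in MetCAT 4 of 237531, in ArgTCT 10 of 21379 and in AsnGTT 7 of 1943. GluTTC was turned the other way, with 83.1% of its reads nuclear-like. AspGTC gave 64.3% of all 75797 nuclear-like reads, GluCTC gave 17.8% and GluTTC gave 11.5%, while GlyGCC gave 1.29%. Set against tRNA-seq on that scale, 32 of 47 families were called lower. AspGTC, GluCTC and GluTTC were called higher, beside tRNA-seq shares of 8.04%, 4.32% and 0.149%. Those tRNA-seq shares were not split by compartment. A part of YAMAT-seq was thus set against the whole of tRNA-seq, and these calls do not compare like with like. With the same limit, Spearman's rho was 0.232 for nuclear-like sequences (29 families) and 0.442 for organelle-like ones (14 families).

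Some nuclear-like sequences were the same in barley and A. thaliana. Without the CCA, 12 of the 86 barley sequences matched TAIR10.1 exactly, tR170 among them. The AspGTC sequence tR250 matched 21 places, among them the tRNA gene AT1G03515 on chromosome 1 at 877648 to 877719, plus strand. GlyTCC tR207 matched 12 places and GlyGCC tR152 matched 14.

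Long tRNAs were rare among the reads. Sequences of 74 to 77 bases with CCA made up all but 34 reads. The 9 sequences over 80 bases were 4 of serine and leucine with 16 reads and 5 of tyrosine with 18 reads. In all 5 tyrosine sequences 13 or 14 extra bases interrupted the anticodon loop just after the base that follows the anticodon. Nuclear tyrosine tRNA genes of plants carry a short intron at this place, which is removed before the tRNA is used. A pair of them with different inserts is shown, with the insert in capitals.
tR101 TyrGTA: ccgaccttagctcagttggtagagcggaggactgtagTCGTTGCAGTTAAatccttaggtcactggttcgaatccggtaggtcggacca
tR9 TyrGTA: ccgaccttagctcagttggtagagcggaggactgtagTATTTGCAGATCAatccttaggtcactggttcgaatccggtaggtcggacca
With the insert taken out, 4 of the 5 lay 1 edit from a spliced TyrGTA gene of A. thaliana and tR195 lay 3 edits away. No tyrosine sequence without an insert was listed for barley, against 5 with 13937 reads in A. thaliana. Wheat, foxtail millet and maize also listed only interrupted ones, with 6, 41 and 9 reads. The tRNA-seq share of TyrGTA in barley was 0.0355%.

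The ends of the sequences were also unevenly read. All 86 ended in CCA. The base just before it was C in 10 sequences with 77.9% of the reads and G in 29 sequences with 21.5%. It was A in 32 sequences and T in 15, which held 0.314% and 0.317% of the reads. This base differed with the family, and tR55, with C there, set most of that share. The T-loop letters GTTC, which are present in most tRNA genes, were found in 83 sequences, and the other 3, of MetCAT and HisGTG, had 6 reads in all.

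Most barley sequences were also listed for wheat, a grass of the same tribe, Triticeae. Of the 86 barley sequences 55 were listed in identical form in wheat, 64.0% of the barley list and 36.4% of the 151 wheat entries. Foxtail millet shared 24 (27.9% of the barley list and 30% of its own 80), maize 19 (22.1% and 26.4% of 72) and A. thaliana 12 (14.0% and 8.39% of 143). Wheat alone shared 28 of them, 5 were listed in all 4 other species and 28 in none. Across the 32 families above 0 in YAMAT-seq of both barley and wheat, Spearman's rho was 0.969, and across 46 families of tRNA-seq it was 0.913. The 28 sequences listed in no other species held 76.1% of the barley reads, nearly all of it tR55.

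**Figure D4:**
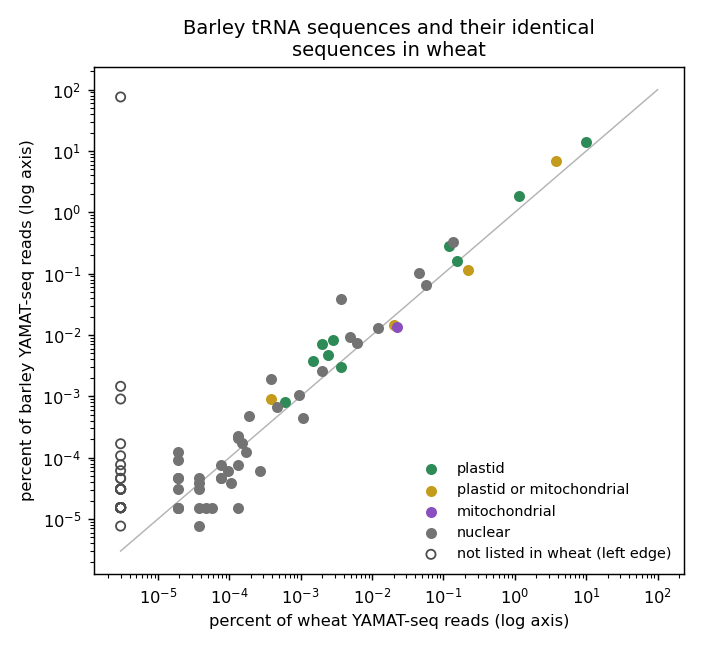
Percent of YAMAT-seq reads in barley (vertical log axis) and in wheat (horizontal log axis) for the 86 barley sequences, 1 point each, with the line of equal shares. The 55 sequences listed in both lie along the line with more scatter at few reads, and the open circle at the top left is tR55 at 76.1% in barley, which was not listed in wheat.

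The leading glycine tRNA was the only one of the 16 sequences with at least 1000 reads that was not listed in wheat, and it differed from the leading wheat GlyGCC sequence by 1 base. That wheat sequence, with 8875264 reads or 84.4% of its library, carried C24T, and the leaders of foxtail millet (6133365 reads) and maize (18864878 reads) both carried A15G and C63T, with the barley base first. These 3 are shown for comparison with tR55.
Wheat GlyGCC: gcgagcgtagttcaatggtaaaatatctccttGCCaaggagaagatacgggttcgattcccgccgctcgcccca
Foxtail millet GlyGCC: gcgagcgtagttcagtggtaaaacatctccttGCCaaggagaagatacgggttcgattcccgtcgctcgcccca
Maize GlyGCC: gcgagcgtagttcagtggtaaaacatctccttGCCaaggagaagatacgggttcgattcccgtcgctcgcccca
The millet and maize sequences were identical to each other. The leading A. thaliana GlyGCC sequence lay 14 edits from tR55.

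Among the sequences listed in both barley and wheat, 34 of 55 had the higher share in barley, and 12 of the 15 with at least 1000 barley reads did. The leading glycine tRNAs, 76.1% in barley and 84.4% in wheat, are not in this set, so more of the barley library is left for the 55. This favours a higher share in barley. The directions that follow hold for shares of the whole library, and shares without those glycine tRNAs were not compared. GlnTTG tR175 was 14.1% in barley and 9.80% in wheat, AspGTC tR170 was 6.84% and 3.81%, and MetCAT tR10 was 1.82% and 1.16%. Among those 15 the share of AspGTC tR205 differed by the largest ratio, at 0.0381% (4977 reads) in barley and 0.00368% (387 reads) in wheat. The same sequence had 31400 reads in foxtail millet and 37957 in maize, and tR250 was listed in neither. Barley and wheat thus listed both forms, with tR250 ahead.

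The GlyGCC share was higher in YAMAT-seq in all 5 species with both assays. GlyGCC was 76.1% of YAMAT-seq and 5.80% of tRNA-seq in barley, 84.4% and 9.25% in wheat, 89.5% and 2.95% in foxtail millet, 95.1% and 2.82% in maize, and 55.3% and 5.21% in A. thaliana. Barley had the lowest YAMAT-seq share of GlyGCC among the 4 grasses. GlnTTG, higher in YAMAT-seq of barley, was 0.00246% of YAMAT-seq and 7.96% of tRNA-seq in maize. There the nearest listed GlnTTG sequence lay 35 edits from tR175. On the scale of all families MetCAT was lower in YAMAT-seq of all 5 species, with log2 ratios of -1.84 in barley, -3.42 in wheat, -2.90 in foxtail millet, -3.71 in maize and -7.52 in A. thaliana. With 1 library per species these differences were not tested. The A. thaliana values set a tRNA-seq library labelled seedling leaf beside a YAMAT-seq library labelled seedling.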

How the data were processed

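YAMAT-seq values were deposited as raw read counts, 1 per listed tRNA sequence (CCA included), per the file headers. No listed count is under 1. The tRNA-seq values were deposited as the percent of total tRNA abundance per anticodon, per the file headers. Cutadapt and the build TAIR10 are named per the submitters' processing notes. The sources used here do not name the aligner, the reference tRNAs of barley or the handling of reads that fit more than 1 tRNA. Adapter ligation, modified bases met in reverse transcription, and PCR may each weigh tRNAs unequally in either assay, and their part in the differences was not tested.

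The anticodon rule used a stem of 5 base pairs around the 7-base loop, and its result was equal to the name of 141 of the 143 YAMAT-seq entries of A. thaliana and to the annotation of 547 of 608 nuclear tRNA genes of TAIR10.1 (532 of 534 other than TyrGTA). A plastid or mitochondrial IleCAT tRNA cannot be told from MetCAT by its anticodon. Counts were summed per anticodon and set against the tRNA-seq percent as log2 ratios of percent + 0.01, called at a 4-fold difference, with no test, since each assay had 1 library (python 3.11.15, pandas 2.3.3, scipy 1.17.1). Compartments came from edit distances (edlib 1.3.9.post1) to 608 nuclear, 37 plastid and 22 mitochondrial tRNA genes, with a limit of 16 edits and the next kind 5 or more edits farther away. Nuclear genes that differed from an organelle tRNA by 1 edit or less were not used. For A. thaliana the seedling leaf and seedling root columns of tRNA-seq hold the same values and were used once, under the leaf label. The A. thaliana YAMAT-seq library is labelled seedling, so its tissue may differ from that of the tRNA-seq values. The calculations were tested on simulated data.

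Families with at least 1% of either barley library, sequences with at least 1000 reads and the leading sequences of the 10 largest families were named by rule. Smaller families and sequences, tR152, the tyrosine sequences and tR250 among them, were named after their values were seen. The members and lists were chosen with earlier results of these data known.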

Additional observations from a re-analysis of the deposited data

Results flagged for a closer look

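The serine family SerGCT lay past 4-fold in opposite directions in barley and A. thaliana. In barley it had 2 reads in YAMAT-seq and 3.88% in tRNA-seq, a log2 ratio of -8.60, whose size is set by the 0.01 added. In A. thaliana it was 9.94% of YAMAT-seq and 1.78% of tRNA-seq, a log2 ratio of 2.48. The other grasses lay on the side of barley, at -7.70 in wheat, -10.57 in foxtail millet and -11.30 in maize. The difference between the species was not tested, since each had 1 library per assay.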

How the results depend on the processing

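No paired analysis was possible because each assay had 1 barley library, and for the same reason no replicate could be left out. The shares of GlyGCC, GlnTTG, AspGTC and MetCAT moved by less than their counting intervals under a minimum of 10 reads, the anticodon of the nearest A. thaliana sequence, and merging of 1-edit sequences. These settings could hardly move them. Merging within a family keeps its sum, sequences under 10 reads held 156 reads, and those with another nearest anticodon held 35. The unchanged shares are therefore no evidence that they are robust. The count of families called higher was 1 as reported, 2 with GlyGCC left out, and, in alternatives chosen after seeing the data, 4 with the 3 largest families left out and 3 with nuclear-like sequences alone. The count called lower was 35 of 47 families as reported and 7 of 47 with a pseudocount of 1, which exceeds most tRNA-seq shares. Under the other alternatives it lay between 25 and 40. The 25 were of 34 families, those with listed reads alone, and the 40 were of 47, with a pseudocount of 0.001. The number of families compared differed between settings, so these counts are not directly comparable. Spearman's rho of 0.374 was 0.334 with families at 0 kept, 0.267 for families with a mean of at least 0.1%, and 0.232 and 0.442 for nuclear-like and organelle-like sequences, chosen after seeing the data. The settings by compartment, for calls and for rho, set a part of YAMAT-seq against the whole of tRNA-seq. With at least 10 reads 42 of the 86 sequences and 12 of the 20 families with more than 1 sequence were left, and SerTGA, LysCTT, LeuAAG, SerGCT and IleAAT had none. At most 12 edits with a gap of 3 put the plastid-like share at 16.4% and left 76.1% unassigned, since tR55 lay 14 edits from its plastid gene. The depth of tRNA-seq is unknown, and its values move in steps of 0.00710%. Of the 10 families under 0.1%, 5 were called lower, with tRNA-seq shares from 0.0355% to 0.0993%. Such shares are coarse, so those calls are weak.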

Other observations

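Among the barley sequences with under 10 reads, 40 of 44 had an even count, and 21 had exactly 2 reads, while of the 42 with at least 10 reads 22 had an even count. The other YAMAT-seq libraries had even counts in 70 of 88 sequences under 10 reads in wheat, 22 of 26 in foxtail millet, 25 of 28 in maize and 34 of 41 in A. thaliana. Whether mates of a read pair were both counted is not given, and its part in these counts was not tested.

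Of the 22 barley sequences that lay 1 edit from one of the same family with as many or more reads, 10 had at least 100 times fewer reads than it, 266 reads in all. Of the 12 barley sequences with an exact match in TAIR10.1, ProTGG tR105 had the most places, 34, with 10 reads in barley and 61 in A. thaliana.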
